A study of Rattus norvegicus with 16 samples.

Results

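The set described here is 7 immediate early and stress genes that were listed by Ensembl gene identifier: Fos (ENSRNOG00000008015), Egr1 (ENSRNOG00000019422), Jun (ENSRNOG00000026293), Arc (ENSRNOG00000043465), Nr4a1 (ENSRNOG00000007607), Atf3 (ENSRNOG00000003745) and Dusp1. No threshold on measured values enters the list, and 6 of the 7 had a row among the 30560 identifiers of the count table. Dusp1 was not analysed here. The list supplies the gene names, because the table holds identifiers alone, and all 6 genes passed the filter on low counts.

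The study measured poly(A) RNA of the rat spinal dorsal horn by bulk RNA sequencing 28 days after an operation. Its 4 groups hold 4 libraries each: wild-type rats after a sham operation (WT sham), wild-type rats after spared nerve injury (WT SNI), LPA4 knockout rats after sham (KO sham) and LPA4 knockout rats after SNI (KO SNI). SNI is a model of neuropathic pain in which branches of the sciatic nerve are cut and 1 is spared, and LPA4 is a receptor for lysophosphatidic acid. The KO sham samples carry the word WT in their sample titles in place of an operation. Their columns in the count table are headed as knockout sham, and they are treated as that group here. The labels give no strain, sex, age or construction of the knockout allele. Nor do they state that each library is a different animal, so p-values here reflect only library-to-library variation, part of which may be technical.

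Immediate early genes are transcribed soon after a cell is stimulated, without the need for new protein, through factors such as SRF and CREB that are already in the nucleus. Fos and Jun proteins pair to form the transcription factor AP-1, Egr1 is a zinc finger transcription factor, Nr4a1 an orphan nuclear receptor, and Arc a synaptic protein that promotes removal of AMPA receptors from the membrane. Atf3 is a relative of Fos and Jun that is best known as a marker of sensory neurons whose axons have been cut, and in the dorsal horn Fos protein has long been used to mark neurons driven by noxious input. Their messages are short-lived, so a sample taken weeks after an operation reads the state of the tissue near the time of collection.

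Promoters are shown for the members whose sequences were found, since stimulus-dependent transcription of this class can run through SRF and CREB sites, some of them close to the start. Sites farther away were not searched for. The RefSeq promoter table of build GRCr8 held 2 of the 6 measured members, Egr1 and Nr4a1, and the 250 bases before the start of each are printed 5′ to 3′ on the gene's strand. Capitals mark CArG boxes, the SRF motif, and half-sites of the cAMP response element. A CArG box was counted only as CC, then 6 letters that are each A or T, then GG. A half-site was the letters CGTCA on either strand. Near matches to either pattern were not counted.
Egr1 promoter, chr18:26736828-26737077, plus strand: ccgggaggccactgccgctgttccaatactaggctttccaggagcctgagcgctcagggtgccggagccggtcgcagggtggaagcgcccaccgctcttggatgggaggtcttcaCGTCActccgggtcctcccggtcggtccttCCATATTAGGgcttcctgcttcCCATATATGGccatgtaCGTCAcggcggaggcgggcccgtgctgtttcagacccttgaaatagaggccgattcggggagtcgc
Nr4a1 promoter, chr7:134259888-134260137, plus strand: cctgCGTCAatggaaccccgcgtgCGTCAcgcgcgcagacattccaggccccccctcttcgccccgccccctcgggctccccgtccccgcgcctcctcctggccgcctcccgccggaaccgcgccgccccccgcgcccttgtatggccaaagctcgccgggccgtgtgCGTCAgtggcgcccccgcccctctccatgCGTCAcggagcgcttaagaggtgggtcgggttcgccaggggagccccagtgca
The Egr1 window held 2 CArG boxes, ending 96 and 74 bases before the start, and 2 half-sites. At least 1 CArG box was present in 1.5% of the 33469 rat promoter windows of the same length, and 2 or more in 0.0209%. The Nr4a1 window held 0 CArG boxes and 4 half-sites, a number reached or passed by 0.173% of windows, while 2 or more half-sites were present in 3.98%. The full element TGACGTCA, which contains 2 overlapping half-sites, was found in neither window and in 1.59% of all windows. GC content was 63.2% for Egr1 and 74.8% for Nr4a1. These are matches of letters in a window and were not tied to any measurement of binding.

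Library totals ran from 15790243 counts in WT sham replicate 2 to 28090152 counts in KO SNI replicate 1, and 15237 genes were tested. The median correlation of a library's log2 CPM (counts scaled for library size) with those of the other libraries was 0.949 for WT sham replicate 2 and 0.973 for KO SNI replicate 1, against 0.980 to 0.987 for the other 14. These are the libraries said below to stand apart, and several values are also given without them. They were also the libraries with the lowest and the highest total, and WT sham replicate 2 had the fewest genes above 0 counts, 17033. Whether depth bears on their values was not tested. The identifier of LPA4 could not be looked up, but 1 identifier had 0 counts in all 8 knockout libraries and 65 to 113 counts in all 8 wild-type libraries, and 0 identifiers showed the reverse with a minimum of 10 counts. The markers of neurons, glia and other cell types could not be matched to identifiers either, so the tissue label was not checked. In bulk tissue, fewer cells that express a gene and less RNA per cell cannot be told apart.

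None of the 6 genes differed between operations or genotypes at an adjusted p under 0.05 (edgeR quasi-likelihood test, Benjamini-Hochberg adjustment over all 15237 genes). For all 6 members the ranges of the 4 libraries overlapped between the groups in each of the 4 simple comparisons. The share of all genes with such overlap was not computed. For Fos after SNI the overlap was slight, with the lowest KO SNI library at 15.72 CPM and the highest WT SNI library at 15.74 CPM. Fos was the member whose group means lay farthest apart in units of its own spread, with higher levels in the knockout groups. Egr1, Arc, Nr4a1 and Atf3 varied more between libraries of 1 group than the trend for genes of their abundance, and for Egr1 a single library held most of that spread. Levels below are CPM scaled by edgeR's trimmed mean (TMM) factors, and are compared within a gene only.

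**Figure D1:**
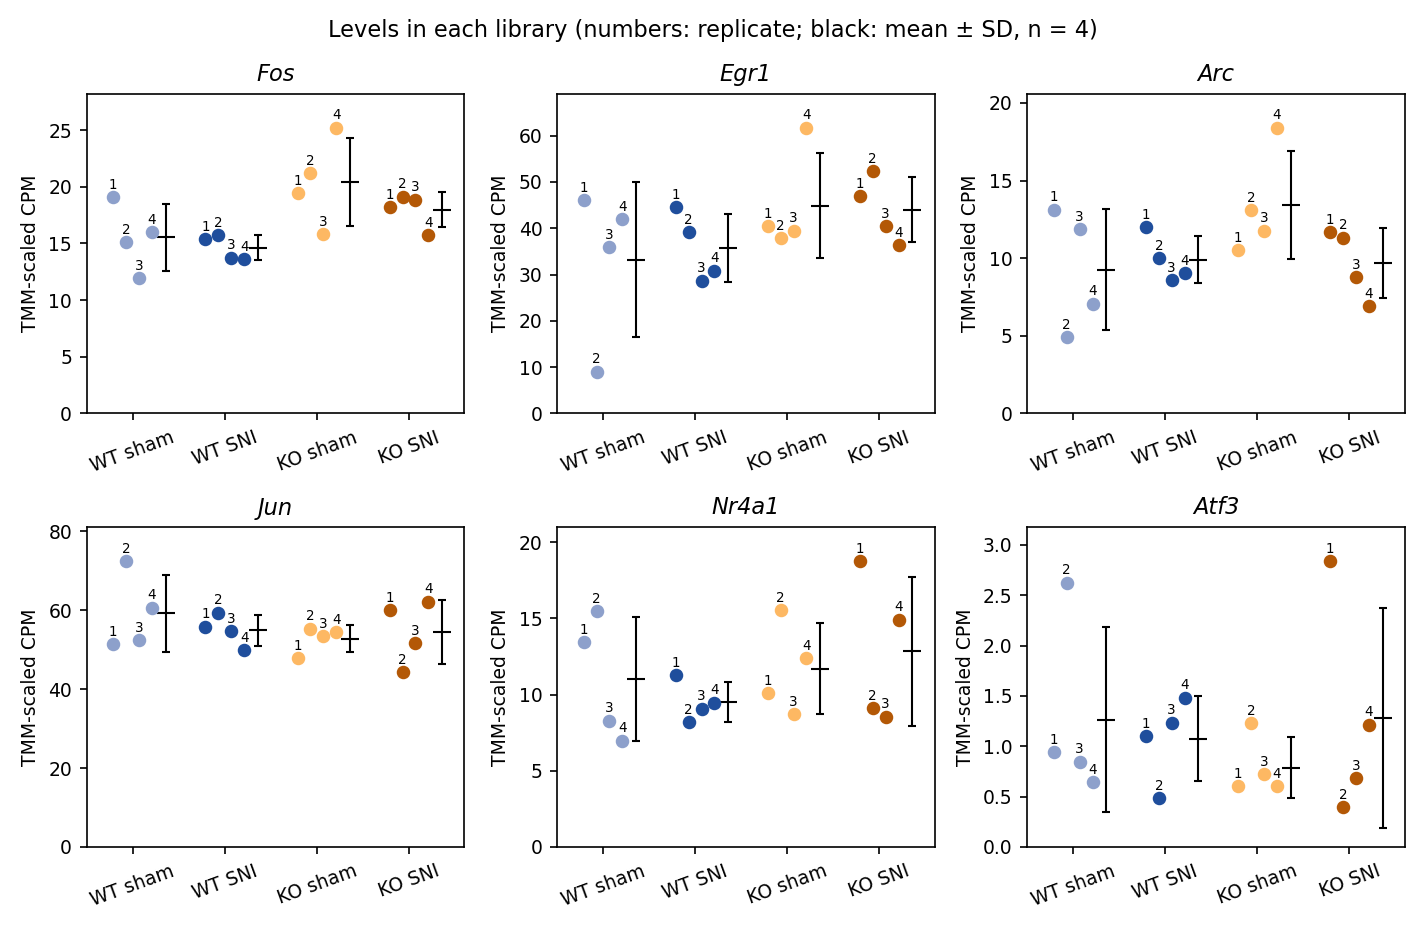
TMM-scaled CPM (y axes from 0) of the 6 measured genes in each of the 16 libraries, by group; points are libraries with their replicate number, black marks are the mean ± SD of 4 libraries. The groups overlap in every panel, though for Fos after SNI only by a narrow margin. WT sham replicate 2 is the lowest point for Egr1 at 8.98, and KO SNI replicate 1 is the highest for Atf3 at 2.84.

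Fos was at 19.1, 15.1, 11.95 and 16.01 CPM in WT sham replicates 1 to 4 and at 15.4, 15.7, 13.7 and 13.6 CPM in WT SNI. In the knockout it was at 19.4, 21.2, 15.8 and 25.2 CPM after sham and at 18.2, 19.1, 18.9 and 15.7 CPM after SNI. Across both operations the 8 knockout libraries ran from 15.7 to 25.2 with a median of 19.0 CPM, and the 8 wild-type libraries from 11.95 to 19.1 with a median of 15.3 CPM. Thus 4 knockout libraries lay above the highest wild-type library and 5 wild-type libraries lay below the lowest knockout library. From the highest group to the lowest, the means were 20.4 ± 3.90 (SD, n = 4) in KO sham, 18.0 ± 1.56 in KO SNI, 15.5 ± 2.94 in WT sham and 14.6 ± 1.1 in WT SNI. The means of the genotypes differed by more than the larger of their SDs, both after sham and after SNI. The means after sham and after SNI differed by less than the larger of their SDs in each genotype.

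Between genotypes after sham, Fos was 1.31 times as high in the knockout (log2 difference 0.39, SE 0.14, 95% interval 0.09 to 0.70). Its unadjusted p was 0.0153, rank 144 of 15237 genes, and the adjusted p was 0.878 (edgeR). After SNI the ratio was 1.23 (log2 0.30, SE 0.14, interval -0.0047 to 0.60), with an unadjusted p of 0.0532 and an adjusted p of 1.0 (edgeR). Averaged over both operations, a comparison added after these values were seen, the ratio was 1.27 (log2 0.35, interval 0.13 to 0.56), the unadjusted p 0.00375, rank 14, and the adjusted p 1.0. The averaged difference was positive in all 22 alternative fits, from 0.28 to 0.40, with an unadjusted p under 0.05 in all 22 and adjusted p from 0.898 to 1.0. KO sham replicate 4 was the highest library for Fos, and without it the sham difference was 0.28. Without WT sham replicate 1 the sham difference was 0.51. The operation effects on Fos were smaller. In wild type the effect was -0.09 (interval -0.40 to 0.22), and 0.028 without WT sham replicate 1. In the knockout it was -0.18 (interval -0.48 to 0.12), with -0.064 without KO sham replicate 4 and -0.29 without KO sham replicate 3. The difference between these effects was -0.09 (interval -0.52 to 0.34), and 0.019 without KO sham replicate 4.

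Egr1 was at 46.1, 8.98, 35.97 and 41.9 CPM in the WT sham libraries, and at 44.5, 39.2, 28.7 and 30.9 CPM in WT SNI. It was at 40.5, 37.8, 39.5 and 61.7 CPM in the KO sham libraries, and at 46.9, 52.4, 40.4 and 36.3 CPM in KO SNI. WT sham replicate 2 stood far below all others, at 0.217 times the mean of the remaining WT sham libraries, and this value rested on 130 counts. The wild-type means were 33.2 ± 16.7 CPM after sham and 35.8 ± 7.36 CPM after SNI, and the knockout means 44.9 ± 11.3 and 44.0 ± 7.08 CPM (SD, n = 4). WT sham became 41.3 ± 5.09 (n = 3) without replicate 2.

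The genotype difference in Egr1 after sham was 0.42 on the log2 scale (SE 0.33, interval -0.28 to 1.13, adjusted p 0.878 by edgeR). It was 0.62 without WT sham replicate 1 and 0.12 without WT sham replicate 2. After SNI, where that library plays no part in the means, the difference was 0.30 (interval -0.40 to 1.002, adjusted p 1.0 by edgeR). The SNI effect in wild type was 0.10 (interval -0.61 to 0.80) with the library and -0.21 without it. In the knockout the SNI effect was -0.03 (interval -0.73 to 0.67), and 0.16 without KO sham replicate 4. Thus in both genotypes the sign of the SNI effect on Egr1 changed when 1 library was left out.

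Nr4a1 was at 13.4, 15.5, 8.28 and 6.96 CPM in the WT sham libraries, and at 11.3, 8.17, 9.06 and 9.47 CPM in WT SNI. Its KO sham values were 10.1, 15.5, 8.72 and 12.4 CPM, and its KO SNI values 18.7, 9.11, 8.55 and 14.9 CPM. WT sham and KO SNI each held a high and a low pair of libraries, and WT SNI was the narrowest group. KO SNI replicate 1 was the highest, at 1.73 times the mean of the other KO SNI libraries. The genotype difference after SNI was 0.44 (SE 0.28, interval -0.16 to 1.03, adjusted p 1.0 by edgeR) and 0.20 without that library. Without KO SNI replicate 3 it was 0.59. After sham the genotype difference was 0.08 (interval -0.52 to 0.68), with 0.27 without WT sham replicate 2 and -0.085 without KO sham replicate 2. The SNI effects were -0.21 in wild type (interval -0.81 to 0.39), which became -0.02 without WT sham replicate 2, and 0.14 in the knockout (interval -0.45 to 0.73), which became -0.10 without KO SNI replicate 1.

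Arc was at 13.1, 4.91, 11.9 and 7.07 CPM in the WT sham libraries, and at 12, 9.98, 8.59 and 9.05 CPM in WT SNI. It was at 10.5, 13.1, 11.8 and 18.4 CPM in the KO sham libraries, and at 11.7, 11.3, 8.76 and 6.93 CPM in KO SNI. KO sham had the highest mean, 13.4 ± 3.47 CPM, and KO SNI was at 9.67 ± 2.24 CPM. The wild-type means were 9.24 ± 3.90 CPM after sham and 9.91 ± 1.51 CPM after SNI (SD, n = 4). The highest library was KO sham replicate 4 and the lowest WT sham replicate 2, the same libraries that were highest and lowest for Egr1.

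On the log2 scale Arc was 0.52 higher in the knockout after sham (SE 0.27, interval -0.04 to 1.09, unadjusted p 0.0679, adjusted p 0.878 by edgeR). With 1 library left out this ran from 0.32 without WT sham replicate 2 to 0.74 without WT sham replicate 1. The unadjusted p was under 0.05 in 4 of 23 alternative fits. It was 0.47 lower after SNI than after sham in the knockout (SE 0.26, interval -1.03 to 0.09, unadjusted p 0.0943, adjusted p 0.995), and the value was -0.28 without KO sham replicate 4. The genotype difference after SNI was -0.03 (interval -0.60 to 0.53), and 0.10 without KO SNI replicate 4. The SNI effect in wild type was 0.08 (interval -0.49 to 0.65), and -0.12 without WT sham replicate 2, so these signs too depended on 1 library. The difference between the SNI effects of the genotypes was -0.55 (interval -1.35 to 0.25, adjusted p 0.978). It was -0.35 without WT sham replicate 2 and -0.77 without WT sham replicate 1. Averaged over genotypes the SNI effect on Arc was -0.19, and -0.35 without both libraries that stood apart (edgeR unadjusted p 0.0464, adjusted p 0.619).

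Jun, the AP-1 partner of Fos, was the steadiest of the 6 genes. In wild type it was at 51.5, 72.4, 52.4 and 60.6 CPM after sham and at 55.8, 59.4, 54.7 and 49.9 CPM after SNI. In the knockout it was at 47.8, 55.3, 53.5 and 54.5 CPM after sham and at 59.9, 44.3, 51.7 and 62.1 CPM after SNI. WT sham replicate 2, the lowest library for Egr1 and Arc, was the highest for Jun. The 4 means lay between 52.8 ± 3.40 CPM in KO sham and 59.2 ± 9.71 CPM in WT sham (SD, n = 4), less than the larger of those SDs apart. The largest log2 difference among the 4 simple comparisons was -0.16, for KO against WT after sham (95% interval -0.41 to 0.08). It was -0.06 without WT sham replicate 2 and -0.23 without WT sham replicate 1. The narrow intervals bound the SNI effect on Jun to between 0.784 and 1.103 times the sham level in wild type and between 0.872 and 1.23 times in the knockout. The SNI effect on Jun in wild type was -0.11, and 0.0063 without WT sham replicate 2.

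Atf3 was close to the lower limit of what these libraries measure, with 10 to 81 counts per library. It was at 0.941, 2.63, 0.848 and 0.643 CPM in the WT sham libraries, and at 1.101, 0.483, 1.23 and 1.48 CPM in WT SNI. It was at 0.6, 1.23, 0.720 and 0.601 CPM in the KO sham libraries, and at 2.84, 0.394, 0.680 and 1.22 CPM in KO SNI. The 2 highest libraries were the 2 that stood apart in the data as a whole: KO SNI replicate 1 was at 3.72 times the mean of the rest of its group and WT sham replicate 2 at 3.24 times. All other libraries were between 0.394 and 1.48 CPM.

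The log2 effect of SNI on Atf3 was -0.20 in wild type (SE 0.57, interval -1.40 to 1.01) and 0.73 in the knockout (SE 0.57, interval -0.48 to 1.94). Without WT sham replicate 2 the former was 0.38, and without KO SNI replicate 1 the latter was -0.03, so each sign depended on 1 library. The interval in the knockout runs from 0.716 to 3.84 times the sham level, so neither a fall below the sham level nor a rise to several times it lay outside what these libraries allow. Between genotypes, Atf3 differed by -0.65 after sham (interval -1.89 to 0.59). This became -0.07 without WT sham replicate 2 and -0.93 without KO sham replicate 2. After SNI it differed by 0.28 (interval -0.90 to 1.45), which became -0.48 without KO SNI replicate 1 and 0.57 without KO SNI replicate 2. Why WT sham replicate 2 and KO SNI replicate 1 differ was not tested.

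**Figure D2:**
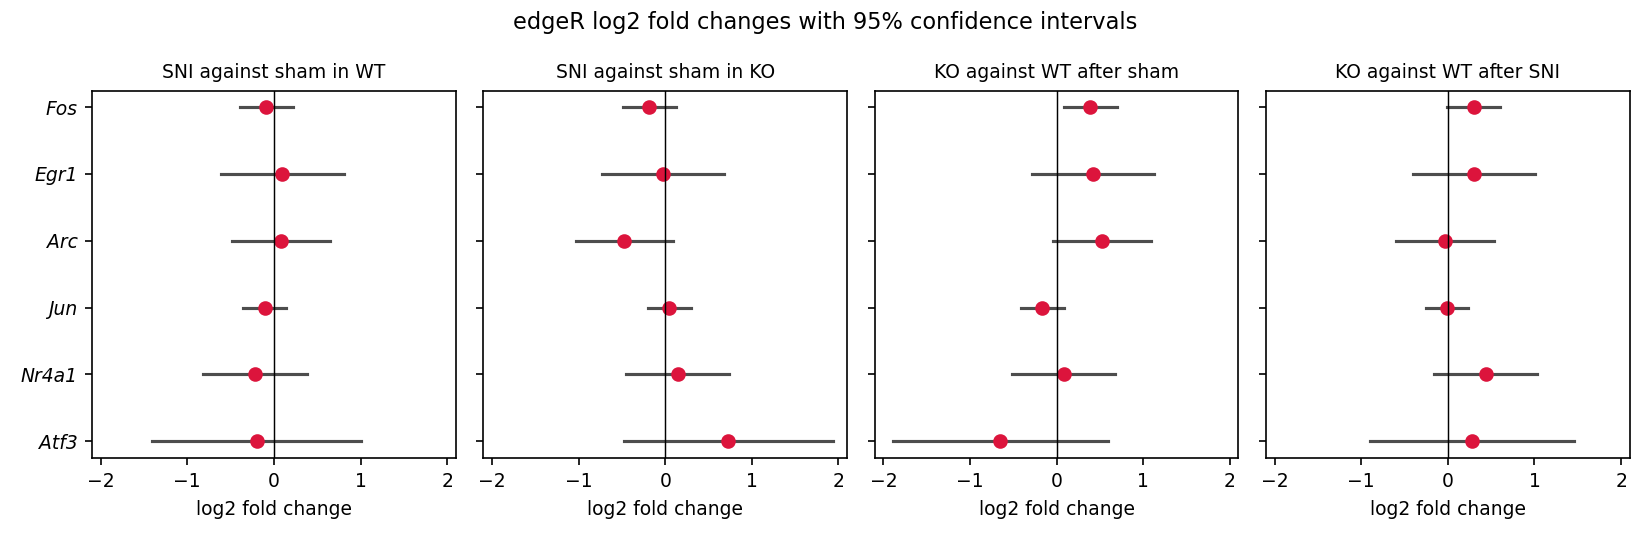
Log2 differences with 95% intervals (x axis) of the 6 measured genes in the 4 simple comparisons, from the edgeR fit over all 16 libraries. The interval of Fos for KO against WT after sham, 0.09 to 0.70, lies above 0, its interval after SNI reaches just below 0, and those of Atf3 are the widest.

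The count of members called can be read against the whole table. For SNI against sham in wild type, 0 of 6 members and 12 of 15237 genes (0.0788%) passed the threshold, and in the knockout 0 of 6 and 16 genes (0.105%). For the SNI effect averaged over genotypes, 139 genes (0.912%) passed and 0 of 6 members, with an averaged Fos difference of -0.14 (-0.073 without KO sham replicate 4) and an averaged Egr1 difference of 0.03 (-0.12 without WT sham replicate 2). For KO against WT, 2 genes (0.0131%) passed after sham, after SNI and in the average over operations, none of them members. For the interaction of genotype and operation 0 genes (0%) passed by edgeR, with 468 genes at an unadjusted p under 0.05, while DESeq2 called 1 and limma voom 0.

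At an unadjusted p under 0.05, Fos was the single member in the genotype comparison after sham, where 592 genes reached it, and in the averaged genotype effect, where 257 did. Of the other comparisons, 0 of 6 members reached it for SNI in wild type (732 genes), SNI in the knockout (743 genes), KO against WT after SNI (188 genes), the averaged SNI effect (809 genes) and the interaction (468 genes). DESeq2 and limma voom also called 0 of 6 members in all 7 comparisons, with 65 and 0 genes for SNI in wild type and 98 and 7 genes for SNI in the knockout. The median size of the members' log2 differences for SNI was 0.10 in wild type (0.09 over all genes) and 0.16 in the knockout (0.09 over all genes). For KO against WT it was 0.41 after sham (0.10 over all genes) and 0.29 after SNI (0.07 over all genes). For KO against WT after sham the members' SEs ran from 0.12 for Jun to 0.58 for Atf3, against a median of 0.13 over all genes. Without both libraries that stood apart the members' medians were 0.11, 0.08, 0.20 and 0.23 in that order. The medians over all genes were not computed for that smaller set of libraries. None of the members' differences passed the adjusted threshold. The 4 simple comparisons share groups pairwise, so their values for a gene are not independent of each other.

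The spread between libraries was then set beside the group effects. For Fos the pooled within-group SD of log2 CPM was 0.21, larger than that of 56.6% of genes tested, and the largest difference between group means was 0.46, or 2.17 SDs. Differences between the 4 groups held 49.7% of the variance of Fos, a share larger than that of 96.8% of genes. The median share over all genes was 15.7%, and 4 groups of 4 with no difference would average 20%. Leaving out 1 library at a time, the share of Fos stayed between 43.9% and 64.0%. For Atf3 the within-group SD was 0.80, larger than that of 96.3% of genes, the group means spanned 0.48, and the groups held 6.46% of the variance. Without both libraries that stood apart, the SD of Atf3 was 0.55 and the share 13.3%. With 1 library left out its share ran from 3.35% (without KO sham replicate 1) to 15.4% (without KO SNI replicate 2).

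Egr1 had an SD of 0.60 and group means spanning 0.64, with 20.2% of its variance between groups (31.1% without WT sham replicate 1). WT sham replicate 2 deviated from its group's mean by -1.64 and alone held 61.1% of the within-group sum of squares; without it the SD was 0.28. Arc had an SD of 0.42 and group means spanning 0.61, with 27.6% of its variance between groups, which ran from 16.01% without KO sham replicate 4 to 41.3% without WT sham replicate 1. Nr4a1 had an SD of 0.44 against a span of 0.36 and a share of 11.4%, which was 20.8% when KO SNI replicate 3 was left out and 7.47% when WT SNI replicate 2 was. Jun had an SD of 0.17 against a span of 0.16 and a share of 12.6%, which ran from 3.53% without WT sham replicate 2 to 22.2% without WT sham replicate 1. Thus the shares of these genes moved by over 1.5 times with a single library. The SD exceeded the span of the group means for Jun, Nr4a1 and Atf3, 3 of 6 members (0 of 6 without KO SNI replicate 2), compared with 53.2% of all genes tested.

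The SD that counting error alone would give can be computed from the counts. It was 0.05 for Egr1, 0.10 for Arc, 0.09 for Nr4a1, 0.08 for Fos and 0.04 for Jun, all well below the SDs observed, and 0.33 for Atf3, against the 0.80 observed. In edgeR's terms the biological coefficient of variation, the spread left after counting error, was 33.1% for Egr1, against a fitted trend of 14.4% at its abundance. It was 26.2% for Arc against a trend of 19.2%, 27.5% for Nr4a1 against 18.8%, and 52.1% for Atf3 against 33.4%. Fos, at 14.6% against 16.7%, and Jun, at 12.1% against 13.3%, were below the trend. Thus 4 of 6 members lay above the trend, as did 22.9% of all genes, so most genes lay below it, as Fos and Jun did. The gene-wise values are drawn toward the trend by edgeR. Estimated from each gene alone they were 36.7% for Egr1, 27.8% for Arc, 29.5% for Nr4a1, 55.8% for Atf3, 14.0% for Fos and 11.7% for Jun.

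**Figure D3:**
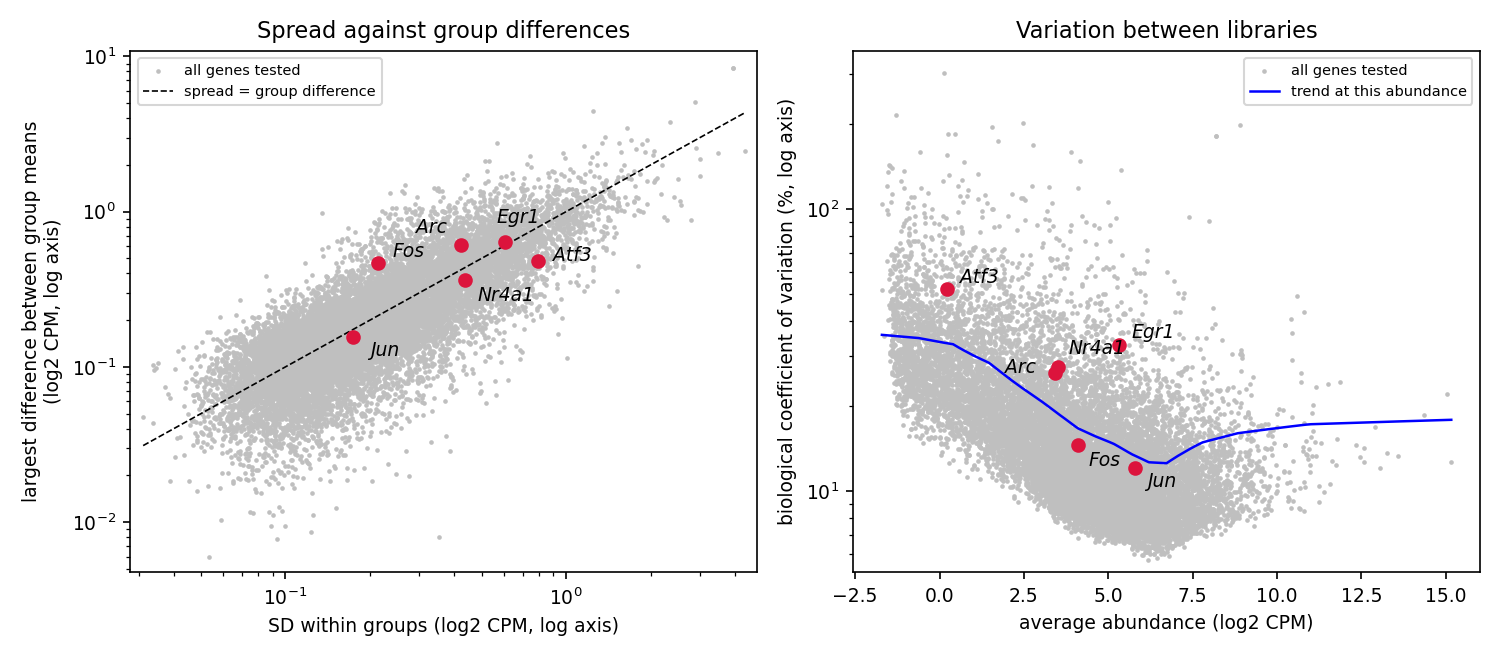
Left, the within-group SD (x) and the largest difference between group means (y) of log2 CPM for the 15237 genes tested in grey and the 6 members in red, log axes, with the line of equality dashed. Right, the biological coefficient of variation (y, %, log axis) against average abundance with edgeR's trend as a line; Egr1, Arc, Nr4a1 and Atf3 are above the line, and Fos and Jun below it.

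The deviations were spread unevenly over libraries. WT sham replicate 2 was farthest from its group's mean for Egr1, Jun and Arc, and KO SNI replicate 1 for Nr4a1 and Atf3, so that the 2 libraries that stood apart were farthest for 5 of 6 members. Their patterns differed: in WT sham replicate 2, Egr1 and Arc were low while Jun, Nr4a1 and Atf3 were high, and in KO SNI replicate 1, Nr4a1 and Atf3 were high. For Fos the farthest library was WT sham replicate 3, and WT sham replicate 2 deviated by -0.02. Another library, KO sham replicate 4, was the highest of all 16 for Fos, Egr1 and Arc.

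**Figure D4:**
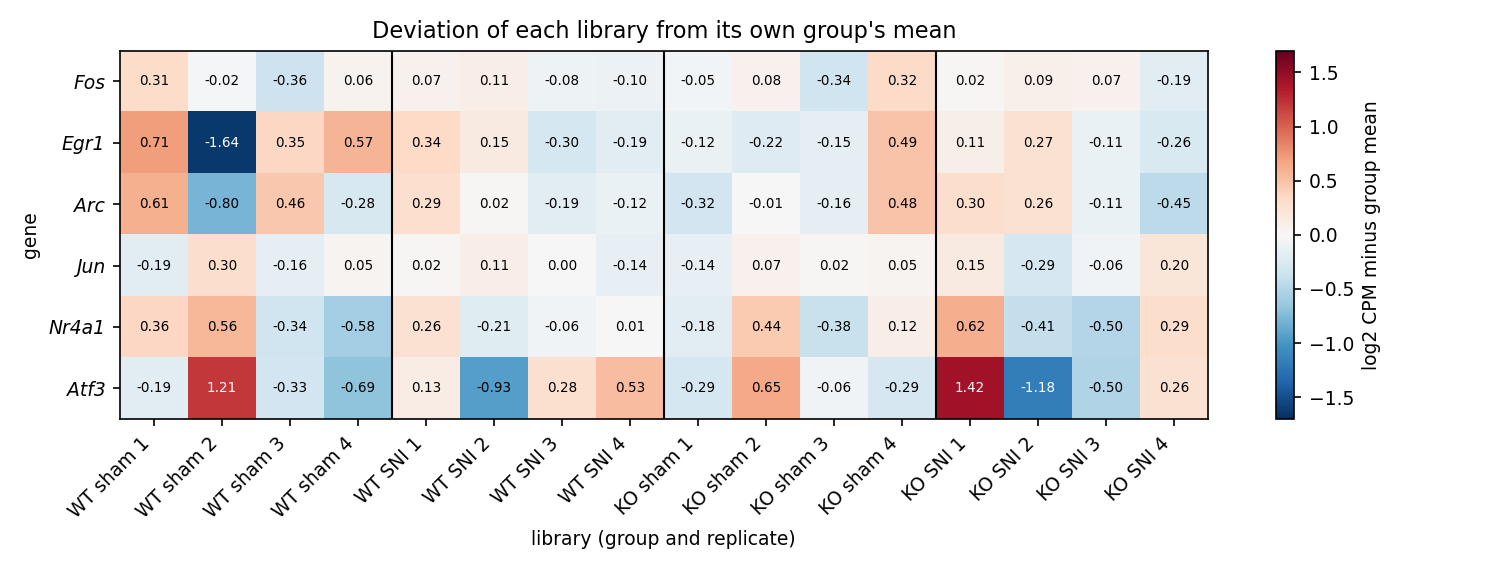
Deviation of each library (columns) from its group's mean in log2 CPM for the 6 measured genes (rows), with the value in each cell. The deepest cell is Egr1 in WT sham replicate 2 at -1.64, and the highest is Atf3 in KO SNI replicate 1 at 1.42.

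Whether libraries high for 1 member were high for another was tested over the 15 pairs and all 16 libraries, with permutation p-values from 100000 resamples, adjusted over the 15 pairs. The resamples moved values across all 16 libraries regardless of group, so these p-values also take in differences between group means. Egr1 and Arc varied together, with r = 0.77 (permutation p = 0.00033, adjusted 0.00495) and rho = 0.56 (permutation p = 0.0262, adjusted 0.131). Nr4a1 and Atf3 also varied together, with r = 0.70 (permutation p = 0.0023, adjusted 0.0172) and rho = 0.59 (permutation p = 0.0176, adjusted 0.131). These were the only pairs of the 15 with an adjusted p under 0.05 for r; by rank, Fos and Egr1 were the only such pair, with rho = 0.71 (permutation p = 0.00274, adjusted 0.0411), while their r was 0.46 (permutation p = 0.0792, adjusted 0.149).

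Both relations by r rested in part on the libraries at the ends. Without the 2 libraries farthest from the median of Egr1, WT sham replicate 2 and KO sham replicate 4, r of Egr1 and Arc was 0.41 (permutation p = 0.149). Leaving out the ends of a gene's range by itself tends to lower r, so this value cannot show that the relation is absent. For Nr4a1 and Atf3, r was 0.57 (permutation p = 0.0314) without KO SNI replicate 1 and KO sham replicate 2. Without the 2 libraries that stood apart, r was 0.61 for Egr1 and Arc (permutation p = 0.0197, adjusted 0.0987) and 0.46 for Nr4a1 and Atf3 (permutation p = 0.0981, adjusted 0.245). Over 19 alternatives that included this step, r of Egr1 and Arc ran from 0.61 to 0.84, with an unadjusted permutation p under 0.05 in 19. For Nr4a1 and Atf3 it ran from 0.46 to 0.75, with 18 under 0.05. Leaving out the 2 libraries that stood apart moved Fos and Egr1 from r = 0.46 over all 16 libraries to r = 0.74 (adjusted permutation p = 0.037). With those 2 kept, KO sham replicates 2 and 4, the libraries farthest from the median of Fos, were left out instead. The r of Fos and Egr1 then went from 0.46 to 0.38 (permutation p = 0.175).

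The other pairs did not pass over all 16 libraries. Between Egr1 and Jun r was -0.61 (permutation p = 0.0251, adjusted 0.0627), and between Egr1 and Atf3 -0.57 (permutation p = 0.0207, adjusted 0.0627). For Egr1 and Jun r was -0.17 without the 2 libraries farthest from the median of Egr1. Egr1 and Atf3 passed without KO SNI replicate 1 (r = -0.79, adjusted permutation p = 0.00532), and their r was -0.34 without WT sham replicate 2. With 1 library left out, Fos and Arc (lowest adjusted permutation p = 0.0319), Jun and Arc (0.0375) and Jun and Atf3 (0.0276) also passed, so which pairs passed varied with the libraries. Fos and Jun, the AP-1 pair, had r = -0.21 (permutation p = 0.44, adjusted 0.508) and rho = -0.26 (permutation p = 0.321). With the group means removed, r was 0.80 for Egr1 and Arc and 0.80 for Nr4a1 and Atf3, given as a description over the same 16 libraries.

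**Figure D5:**
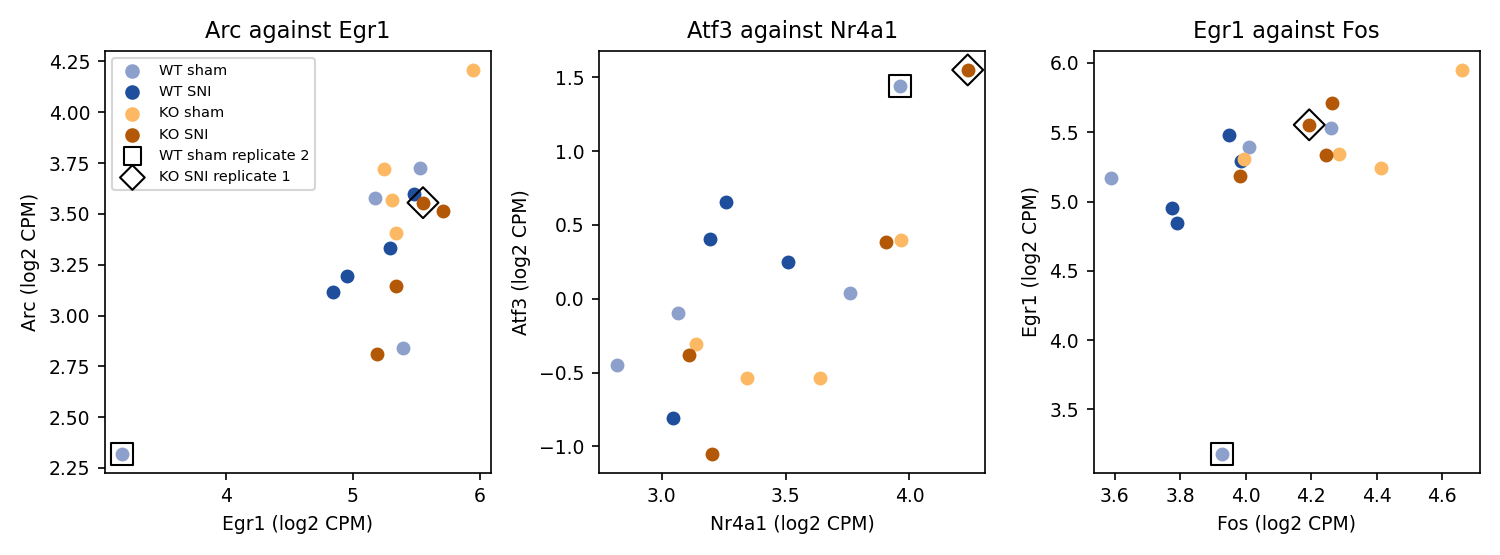
Log2 CPM of 3 pairs of genes in the 16 libraries, coloured by group, with WT sham replicate 2 boxed and KO SNI replicate 1 in a diamond. WT sham replicate 2 sits alone at the lower left for Egr1 and Arc, and both marked libraries are at the upper right for Nr4a1 and Atf3.

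Set against all other genes with group means removed, 0.368% of the 15236 others had a larger r with Arc than Egr1 did, but 7.52% had a larger r with Egr1 than Arc did. For Nr4a1 and Atf3 these shares were 0.381% from the side of Nr4a1 and 0.82% from the side of Atf3. The 6 members did not form a single block. The r of each with the mean of the other 5 ranked 548 for Nr4a1 (r = 0.56), 3418 for Fos (r = 0.31), 5530 for Atf3 (r = 0.14), 5670 for Arc (r = 0.15), 8312 for Jun (r = -0.01) and 9305 for Egr1 (r = -0.12) among 15237 genes. These are descriptions over the same 16 libraries, whose totals differ, and whether depth bears on these r values was not tested. The non-members most like the mean of the 6 were ENSRNOG00000054695 (r = 0.88, 19.6 to 50.8 CPM) and ENSRNOG00000016054 (r = 0.87, 53.5 to 75.3 CPM), and both were highest in KO SNI replicate 1.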

How the data were processed

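Poly(A) RNA of 16 rat dorsal horn samples was prepared with a stranded TruSeq kit, per the labels' protocols. The authors deposited a table of expected counts, a count estimated per Ensembl gene and library, of which 96.4% of values are whole numbers (tolerance 1e-9). fastp 0.22.0, STAR 2.7.9a, RSEM 1.3.1 and build mRatBN7.2 are named in the submitters' processing notes, without roles.

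Expected counts were rounded to whole numbers, filtered with edgeR 4.0.16 (filterByExpr, minimum count 10, which left 15237 genes holding 99.97% of counts) and scaled by TMM. One quasi-likelihood fit with a mean per group covered all 16 libraries, with Benjamini-Hochberg adjustment over all genes tested and a threshold of 0.05. Intervals are 95% intervals of that fit. Log2 CPM used a prior count of 2. R 4.3.3, DESeq2 1.42.0 and limma 3.58.1 gave alternatives.

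No table used here pairs these identifiers with symbols, so the lists of other immediate early, stress and pathway genes and the cell type markers were not used; correlations cover 15 pairs, since 6 genes were measured. The list of members uses no threshold on values, but members, other lists and alternatives were all chosen with earlier results of these data known. All 6 measured members are named in every comparison, and beyond them the 2 genes most like their mean. Over the 120 pairs of libraries, chi-square divided by its degrees of freedom was 7.85 to 120, so none were duplicates.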

Additional observations from a re-analysis of the deposited data

Results flagged for a closer look

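In 24 sets of 4 libraries (6 genes in 4 groups), the gap between the highest or lowest library and its nearest neighbour was compared with the range of the set. The check used CPM. It passed Dixon's 95% critical value in 2 sets, and chance alone flags about 1 in 20 sets if values are normally distributed. Egr1 in KO sham replicate 4 was at 61.7 CPM, with the other KO sham libraries between 37.8 and 40.5 CPM and a gap of 0.888 of the range. Atf3 in WT sham replicate 2 was at 2.63 CPM, with the other WT sham libraries between 0.643 and 0.941 CPM and a gap of 0.85 of the range. On this CPM scale the low Egr1 value of WT sham replicate 2 (8.98 CPM, others 35.97 to 46.1) and the high Atf3 value of KO SNI replicate 1 (2.84 CPM, others 0.394 to 1.22) did not pass it. The check was not made on log2 CPM, where low values lie farther apart and other sets may pass. In log2 CPM, Egr1 was at 3.18 in WT sham replicate 2 and at 5.17 to 5.53 in the other WT sham libraries.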

How the results depend on the processing

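In 948 alternative values of the members' log2 differences, from up to 23 other fits, 0 passed the threshold and the smallest adjusted p was 0.576. Of these values 58 changed sign and 890 kept it. Only values that changed sign are listed in the rest of this paragraph. Without WT sham replicate 2 and KO SNI replicate 1 together, the SNI effect in wild type was -0.21 for Egr1, 0.0059 for Jun, -0.12 for Arc and 0.38 for Atf3. In the knockout it was -0.00049 for Jun, -0.10 for Nr4a1 and -0.023 for Atf3. Atf3 for KO against WT after SNI was -0.48, the averaged SNI effect was -0.13 for Egr1 and 0.0027 for Jun, and the interaction was 0.15 for Egr1, -0.0063 for Jun, -0.074 for Nr4a1 and -0.40 for Atf3. The r of Egr1 and Nr4a1 was 0.18. The cause was not tested.

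Each library was also left out in turn, and of the log2 differences and r values only those whose range crossed 0 are given here. The SNI effect in wild type ran from -0.20 to 0.028 for Fos, -0.21 to 0.30 for Egr1, -0.17 to 0.0063 for Jun, -0.12 to 0.30 for Arc and -0.41 to 0.38 for Atf3. In the knockout it ran from -0.12 to 0.16 for Egr1, -0.021 to 0.14 for Jun, -0.10 to 0.31 for Nr4a1 and -0.027 to 1.03 for Atf3. Averaged over genotypes it ran from -0.12 to 0.13 for Egr1, -0.063 to 0.026 for Jun, -0.16 to 0.062 for Nr4a1 and -0.11 to 0.56 for Atf3. KO against WT ran from -0.085 to 0.27 for Nr4a1 after sham, from -0.081 to 0.075 for Jun, -0.14 to 0.10 for Arc and -0.48 to 0.57 for Atf3 after SNI, and from -0.57 to 0.10 for Atf3 on average. The interaction ran from -0.21 to 0.019 for Fos and from -0.32 to 0.18 for Egr1. The r of Egr1 and Nr4a1 ran from -0.31 to 0.26, and that of Arc and Nr4a1 from -0.076 to 0.35. Pairs with an adjusted p under 0.05 numbered 2, 1 to 3 when 1 library was left out, and 1 without both that stood apart. Members whose SD exceeded the span of group means numbered 3, and 0 to 3 by library left out (0 without KO SNI replicate 2); members with a share of variance above the median numbered 3, and 2 to 5.

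With the replicate number as a block, 0 members were called and the sign of 1 value changed, Egr1 for SNI in the knockout at 0.000897. The labels do not say whether the numbers pair the libraries. In 24 same-numbered pairs from different groups, r of the deviations ran from -0.36 to 0.23 and passed 0.1 in 6. In differently numbered pairs it ran from -0.34 to 0.36. These values cannot settle whether libraries were paired. Genes called over the whole table for SNI in wild type, SNI in the knockout and the averaged SNI effect were 12, 16 and 139. They were 46, 70 and 143 with the block, 65, 98 and 223 by DESeq2, 0, 7 and 136 by limma voom, 33, 7 and 159 without both libraries that stood apart, and 0 to 20, 3 to 33 and 79 to 177 when 1 library was left out. With only the 8 libraries compared, 0 and 4 were called for the first and second. For KO against WT after sham, 2 genes were called, 4 by DESeq2 and 1 with the block, with the 8 libraries alone or without both. The interaction gave 0, and 1 by DESeq2. Depth limits Atf3, at 10 to 81 counts.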
